A study of Mus musculus with 15 samples.

Results

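The carboxylesterases described here are 8 mouse genes, Ces1d, Ces1e, Ces1f, Ces1g, Ces2a, Ces2b, Ces2c and Ces2e, found by symbol among the 24594 rows of the table of sorted intestinal epithelium. The same table holds 12 further genes of the family, so the 8 are part of a family of 20. The 8 were chosen by their counts in the fetal and adult libraries described here, as named genes and with no numeric threshold. The difference between fetal and adult cells in these 8 genes is therefore given as a description, with no test. Of the 15 RNA-seq libraries of the series, 6 could be used, because the table of the other 9, all organoids, has no gene identifiers. The fetal group is 3 libraries of proximal intestine of C57Bl/6J embryos at E16.5, sorted as EpCAM+/DAPI-/CD31-/CD45- cells, with no genotype named. The adult group is 3 libraries of wild-type C57Bl/6J crypts from the first 20% of the small intestine, sorted as EpCAM+/DAPI-/Lin-/CD24mid cells, that is, DAPI-negative epithelial cells with a middle level of CD24. Neither group was treated. Age and sort gate differ together between the groups, and crypt isolation and a library kit are named for the adult group only, so their parts cannot be told apart.

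Carboxylesterases are serine hydrolases that sit mostly in the lumen of the endoplasmic reticulum (ER) and cut ester, amide and thioester bonds. They activate or inactivate ester drugs on their way through gut and liver, and several of them split acylglycerols and cholesteryl esters. Enzymes of the Ces1 group are best known from liver and fat, and those of the Ces2 group from the small intestine. A tail of the form His-X-Glu-Leu, which KDEL receptors recognise, holds the resident enzymes in the ER, and forms without it are secreted.

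The 8 genes lie in 2 blocks of chromosome 8 (GENCODE M21, build GRCm38, which is mm10). The Ces1 genes and Ces5a fill 516 kb, from 93020214 to 93535830, all on the minus strand. The Ces2, Ces3 and Ces4 genes fill 416 kb, from 104734003 to 105150109, all on the plus strand. Ces1d spans 93166068 to 93197838, Ces1e 93201218 to 93229619, Ces1f 93256236 to 93279747 and Ces1g 93302369 to 93337308. Ces2a spans 104734003 to 104741634, Ces2b 104831572 to 104840093, Ces2c 104847068 to 104854483 and Ces2e 104926260 to 104934672. Each Ces1 member has 14 exons and each Ces2 member 12 in its longest coding transcript.

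How alike the genes are decides how well their reads can be told apart, so the bases around the catalytic serine are shown for each member. Every coding sequence held exactly 1 Gly-X-Ser-X-Gly stretch. The runs below cover 30 coding bases of the GENCODE transcripts, 5′ to 3′, with the serine codon in capitals.
Ces1d: atctttggagagTCAgcaggaggtttcagt
Ces1e: atctttggagagTCAgcaggaggtgaaagt
Ces1f: atctttggagagTCAgcaggaggttacagt
Ces1g: atcttcggcgagTCAgcaggaggtgaaagt
Ces2a: atatttggagtcTCAgcaggaggtacaagt
Ces2b: atttttggcgagTCTgcaggtggcacaagt
Ces2c: atttttggcgagTCTgcaggtggcacaagt
Ces2e: atttttggagagTCAgcaggtggcacaagt

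The serine codon was TCA in 6 members and TCT in Ces2b and Ces2c, whose 30 bases were the same throughout. Over whole coding sequences, Ces2b and Ces2c were the closest pair of the 28, at 92.1% identical aligned bases. Identity had a median of 78.4% over the 6 Ces1 pairs, 83.5% over the 6 Ces2 pairs and 60.1% over the 16 pairs of a Ces1 with a Ces2 gene. The share of a transcript's 50-base words that also occur in transcripts of another gene, on either strand, was 42.2% for Ces2c, mostly shared with the pseudogene Ces2d-ps. It was 22.2% for Ces2a, mostly shared with Gm7208, and 9.79% for Ces2b. It was 1.28% to 3.36% for Ces2e and the 4 Ces1 members. How the authors counted reads that match more than 1 gene is not given in the sources used here, so the levels of Ces2a, Ces2b and Ces2c are the less certain ones.

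All 8 members end in codons for His-X-Glu-Leu, against 3 of the 11 other coding genes of the family. The last 24 coding bases before the stop codon show this for the member with most RNA and for a family gene without the tail, with the last 4 codons in capitals.
Ces2e: tctcaggagaggCACAAAGAGTTG
Ces1c: cctactgaacacACAGAACACAAA

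Ces1c, the gene shown for contrast, encodes the carboxylesterase that mice carry in blood plasma. Its level is given with the family below.

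Total counts were 7888998 to 10538004 per fetal library and 5795518 to 6045113 per adult library. CPM here is a count scaled to the library's TMM-adjusted size. The labels do not say whether replicates came from separate animals, so spread between libraries may be technical in part. Bulk libraries do not tell fewer cells of a type from less RNA per cell. The 7 markers of epithelium summed to 4532 to 4573 CPM in fetal and 6836 to 7322 CPM in adult libraries. Of these, 6 were lower in every fetal library, and Vil1 overlapped. By group means, the gap in CPM was widest for Krt19, at 793 against 2038, and Krt8, at 398 against 858. Epcam was at 844 against 1034 CPM, Cdh1 at 1448 against 1742 and Vil1 at 572 against 608. A scale set to this sum is thus moved most by Krt19 and Krt8. The 12 enterocyte markers summed to 6398 to 8399 against 3379 to 4282 CPM, and 8 of them were higher and 4 lower in every fetal than in every adult library. The 7 crypt base stem cell markers summed to 164 to 230.4 against 7200 to 9730 CPM, and the 8 markers of Paneth and goblet cells to 872 to 1444 against 5573 to 11261 CPM. The 10 mesenchyme markers, all higher in every fetal library, summed to 148 to 208 against 7.26 to 15.9 CPM.

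The 4 Ces1 members together stood at 6.48 ± 0.65 CPM (SD, n = 3) in fetal and 57.1 ± 12.2 CPM in adult cells, and the 4 Ces2 members at 79.4 ± 18.5 against 142 ± 14.8 CPM. Of the 8 members, 7 were lower in every fetal library than in every adult one. Of all tested genes 29.6% were lower, 32.7% higher and 62.3% one or the other in this way. For Ces2b the groups overlapped. The members were chosen with this contrast known, and nothing is read from these counts. Ces1g did not pass the filter on low counts.

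Ces1f had the widest gap between the ages. It is a relative of Ces1d for which hydrolysis of triacylglycerols has been described. Its counts were 0, 1 and 1 in fetal replicates 1 to 3 and 143, 158 and 190 in adult replicates 1 to 3. In CPM these were 0, 0.125 and 0.0937 against 25.3, 26.8 and 32.8. All adult libraries lay far above the fetal ones, which had next to no Ces1f RNA. Pooled over libraries, the adult-to-fetal ratio was 378, with a 95% counting interval of 104 to 3131, which covers counting error only.

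Ces1g, a lipid hydrolase whose loss in mice goes with fat build-up in the liver, was low in both ages. It had counts of 1, 0 and 1 in fetal and 13, 8 and 20 in adult libraries, or 0.125, 0 and 0.0937 CPM against 2.30, 1.36 and 3.46 CPM. The groups did not overlap, and the ratio of 31.6 has a counting interval of 8.20 to 269.5. Ces1f and Ces1g, which neighbour each other on the chromosome, were thus the 2 members with a fetal level near that of a single read.

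Ces1d and Ces1e kept a measurable fetal level. Ces1d, a triacylglycerol hydrolase of liver and fat, was at 2.25, 1.37 and 1.69 CPM in fetal and 7.42, 6.11 and 12.8 CPM in adult libraries. Ces1e, known as egasyn, which binds beta-glucuronidase in the ER, was at 3.87, 4.49 and 5.34 against 16.4, 14.4 and 22.0 CPM. The adult mean was 4.96 times the fetal mean for Ces1d and 3.86 times for Ces1e. Pooled over libraries, the ratio was 4.98 for Ces1d, with a counting interval of 3.57 to 7.07 from 47 fetal and 152 adult counts. For Ces1e it was 3.79, with an interval of 3.07 to 4.71. In both genes adult replicate 3 was the highest library, as it was for Ces1f and Ces1g. The span of a gene model, Gm45909, overlaps that of Ces1d on the same strand, introns included. Of the 50-base words of Ces1d, 1.28% occur in transcripts of any other gene, most often of Ces1b.

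**Figure D1:**
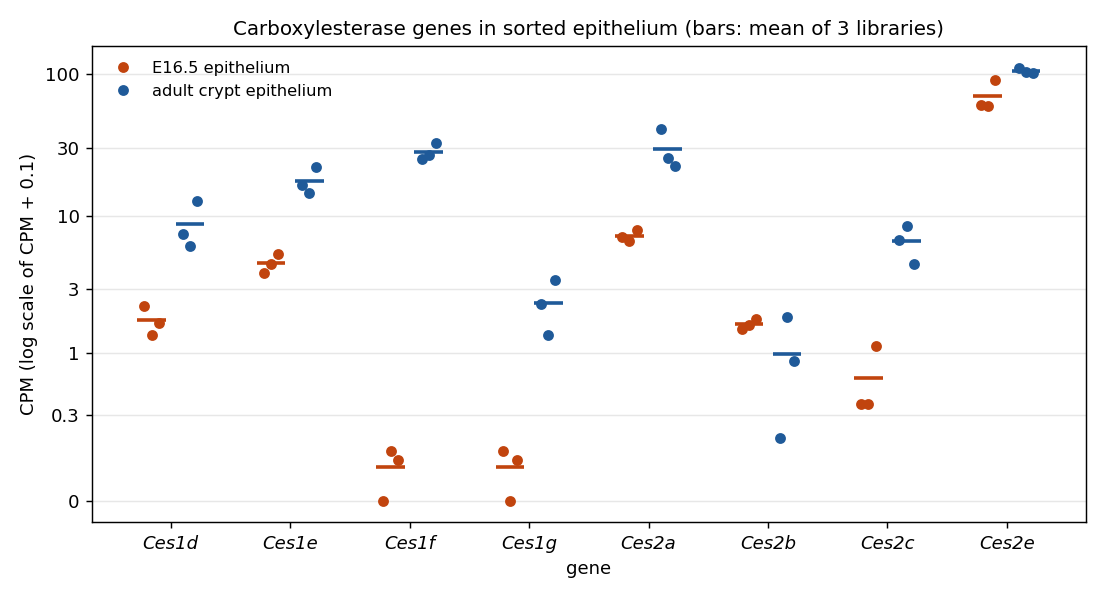
CPM of each of the 8 carboxylesterase genes (x axis) in the 3 fetal and 3 adult libraries, on a log scale of CPM + 0.1; points are libraries and bars are means. Fetal and adult points separate in 7 genes and overlap in Ces2b, and the widest gap is that of Ces1f, at 0 to 0.125 CPM in fetal and 25.3 to 32.8 CPM in adult libraries.

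Among the Ces2 members, Ces2e carried most of the RNA at both ages. It was at 60.6, 59.5 and 90.0 CPM in fetal and 111, 103 and 102 CPM in adult libraries. The groups did not overlap, but fetal replicate 3 lay nearer to the adult libraries than to its own group. The 7 stomach markers found in the table also stood apart in that library, at 40.4 CPM in sum against 5.61 and 7.36 CPM in the other fetal and 2.65 to 5.09 CPM in the adult libraries, with Tff1 at 19.2 against 2.49 and 2.24 CPM. Fetal replicate 3 was also the highest fetal library for enterocyte markers, at 8399 against 6398 and 8092 CPM. The same held for Paneth and goblet markers, at 1444 against 872 and 1302 CPM. It was the lowest fetal library for crypt base stem cell markers, at 164 CPM, and for mesenchyme markers, at 148 CPM. The part of any of these cell types in the levels of Ces2e and Ces2c was not tested. The spread over fetal libraries was 24.7% of the mean, where counting alone gives 3.95%, and the adult spread of 4.56% was near the 4.05% of counting. The adult mean was 1.50 times the fetal one, and the fitted log2 fold change, fetal over adult, was −0.58, or −0.80 without fetal replicate 3. Refitted with the summed counts of the 7 epithelium markers as library sizes, it was 0.044, so the sign of Ces2e depended on the scale.

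That scale moved the median log2 fold change of all tested genes by a like amount, from 0.01 to 0.63. Relative to this median, Ces2e stood at −0.59 and Ces1d, Ces1e and Ces2a at −2.32, −1.94 and −2.05, near their values under TMM. New library sizes shift all genes by nearly the same amount, so this nearness was fixed in advance and is no check. As read against the epithelium markers themselves, Ces1d was at −1.68, Ces1e at −1.31 and Ces2a at −1.41, and Ces2e was the 1 member of the 7 fitted whose sign turned. The summed members had a log2 ratio of means, fetal over adult, of −1.21 under TMM and −0.59 against the markers. Whether differing shares of other cells in the sorts had a part in the members' differences was not tested.

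Ces2a and Ces2c had lower fetal levels in all libraries. Both belong to the group that splits di- and triacylglycerols. Ces2a was at 6.99, 6.61 and 7.87 CPM in fetal and 40.8, 25.4 and 22.3 CPM in adult libraries, and adult replicate 1 stood above the other two. Ces2c was at 0.374, 0.374 and 1.12 CPM in fetal and 6.72, 8.48 and 4.49 CPM in adult libraries. Fetal replicate 3, the fetal library with the highest total count and most stomach marker RNA, held 12 of the 18 fetal counts of Ces2c. The fitted log2 of −3.27 was −4.06 without that library.

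Ces2b was the member without a gap between the ages. It was at 1.50, 1.62 and 1.78 CPM in fetal and 0.177, 1.87 and 0.864 CPM in adult libraries, from 44 fetal and 17 adult counts. The adult libraries ran from below to above all fetal ones. The pooled fetal-to-adult ratio was 1.68 with a counting interval of 0.941 to 3.14. The fitted log2 of 0.74 ran from 0.25 without adult replicate 1 to 1.61 without adult replicate 2. No value was obtained for Ces2b without fetal replicate 3. No direction was thus discernible in these libraries. The adult spread of 87.7% of the mean was above the 42.0% that counting gives.

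Levels of different genes can be set side by side per kilobase of the longest coding transcript. In adult crypts the order was Ces2e at 39.0 ± 1.78 CPM per kb (SD, n = 3), Ces2a at 15.1 ± 5.06, Ces1f at 14.7 ± 2.08, Ces1e at 8.49 ± 1.88, Ces1d at 4.38 ± 1.77, Ces2c at 3.33 ± 1.01, Ces1g at 0.993 ± 0.44 and Ces2b at 0.284 ± 0.25. The means of Ces2a and Ces1f, and those of Ces1d and Ces2c, lay closer together than the larger of their SDs. In fetal cells Ces2e led with 25.9 ± 6.41 CPM per kb, and Ces2a followed at 3.65 ± 0.33, Ces1e at 2.20 ± 0.36 and Ces1d at 0.882 ± 0.22. Ces2b and Ces2c, at 0.479 ± 0.042 and 0.317 ± 0.22, lay closer together than the larger SD. This nearness depends on the length used. The transcripts have 3408 bases for Ces2b and 1970 for Ces2c, but their coding parts have 1668 and 1683 bases. In CPM the fetal means were 1.63 for Ces2b and 0.624 for Ces2c, and the libraries did not overlap. The place of Ces2b in these orders is thus uncertain. Ces1f and Ces1g, at 0.0378 ± 0.034 and 0.0305 ± 0.027, closed the order and could not be ranked. Ces1f, close to Ces2a in adult crypts and above it in adult replicates 2 and 3, was thus at the foot of the fetal order together with Ces1g.

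**Figure D2:**
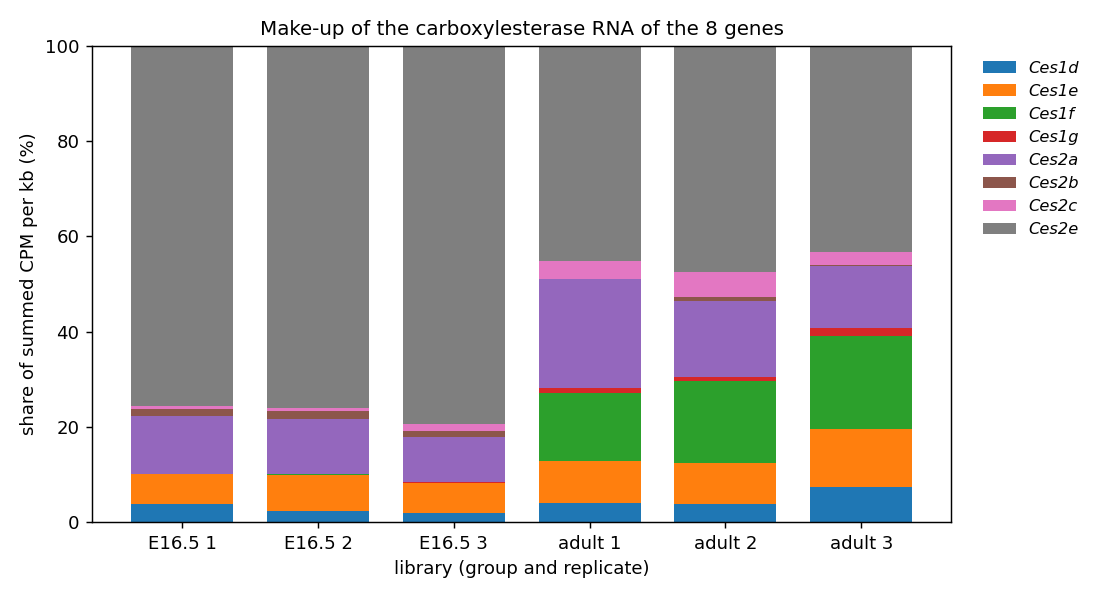
Share of each of the 8 genes in their summed CPM per kb (y axis, percent) for each library (x axis, E16.5 and adult replicates 1 to 3). Ces2e takes 75.6% to 79.5% of the bar in fetal and 43.3% to 47.4% in adult libraries.

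The make-up of the members' RNA, in the plot of shares by library, differed accordingly. Ces2e made up 75.6%, 76.0% and 79.5% of the summed CPM per kb in fetal replicates 1 to 3 and 45.1%, 47.4% and 43.3% in adult replicates 1 to 3. Ces1f made up 14.4% to 19.6% in adult libraries and 0 to 0.223% in fetal ones. Ces1e was at 6.14% to 7.47% in fetal and 8.64% to 12.1% in adult libraries. These shares depend on no scaling between libraries, since each is taken within its own library.

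The other 12 genes of the family were a list of their own, of which 2 could be tested. Over the whole table edgeR's quasi-likelihood test called 25.9% of tested genes lower and 29.0% higher in fetal cells, 54.9% in all. Ces2g, whose start lies 27.0 kb beyond the end of Ces2e with Ces2f between them, was lower in fetal cells, at 0.998, 1.25 and 2.25 CPM against 64.9, 70.9 and 64.3 CPM. Its log2 fold change was −5.40 ± 0.19 (SE), with an adjusted p of 1.99e-10 by edgeR's quasi-likelihood test. In adult crypts Ces2g stood at 23.3 ± 1.28 CPM per kb, second to Ces2e among the 20 genes, and in fetal cells at 0.524 ± 0.23. Ces2e and Ces2g were thus both abundant in adult cells, and of this pair Ces2e was abundant in fetal cells too.

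Ces1c, the plasma enzyme without the ER tail, was the 1 family gene called higher in fetal cells. It was at 6.99, 11.1 and 10.3 CPM against 1.77, 0.170 and 0.519 CPM. Its log2 fold change was 3.52 ± 0.46 (edgeR adjusted p = 2.46e-05), or 4.72 without adult replicate 1, which held 10 of the 14 adult counts. Of its 50-base words 17.0% are shared, mostly with Ces1b, its neighbour. Ces1c is also a liver product, and 12 hepatocyte markers summed to 182 to 220.5 CPM in fetal against 62.6 to 99.9 CPM in adult libraries. In every fetal library 7 of them were higher and 1, Afp, lower than in every adult one. Ahsg had 0 counts in all 6 libraries and Alb had 16 fetal and 12 adult counts, while Ttr was at 81.2 against 8.23 CPM. Their part in the level of Ces1c was not tested.

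The remaining family genes were scarce. Ces2f had 2 fetal and 21 adult counts, a ratio of 16.2 with a counting interval of 3.95 to 142, and was not tested. Ces1b had 19 fetal and 5 adult counts, Ces2h 4 and 9, Ces3a 3 and 6, Ces4a 2 and 0 and Ces2d-ps 0 and 1. Ces1a, Ces1h, Ces3b and Ces5a had 0 counts in all 6 libraries, which allows a level of up to 0.112 CPM over the fetal and 0.173 CPM over the adult group. Reads of Ces2c could be shared with Ces2d-ps, but that pseudogene itself was given 1 count in all.

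**Figure D3:**
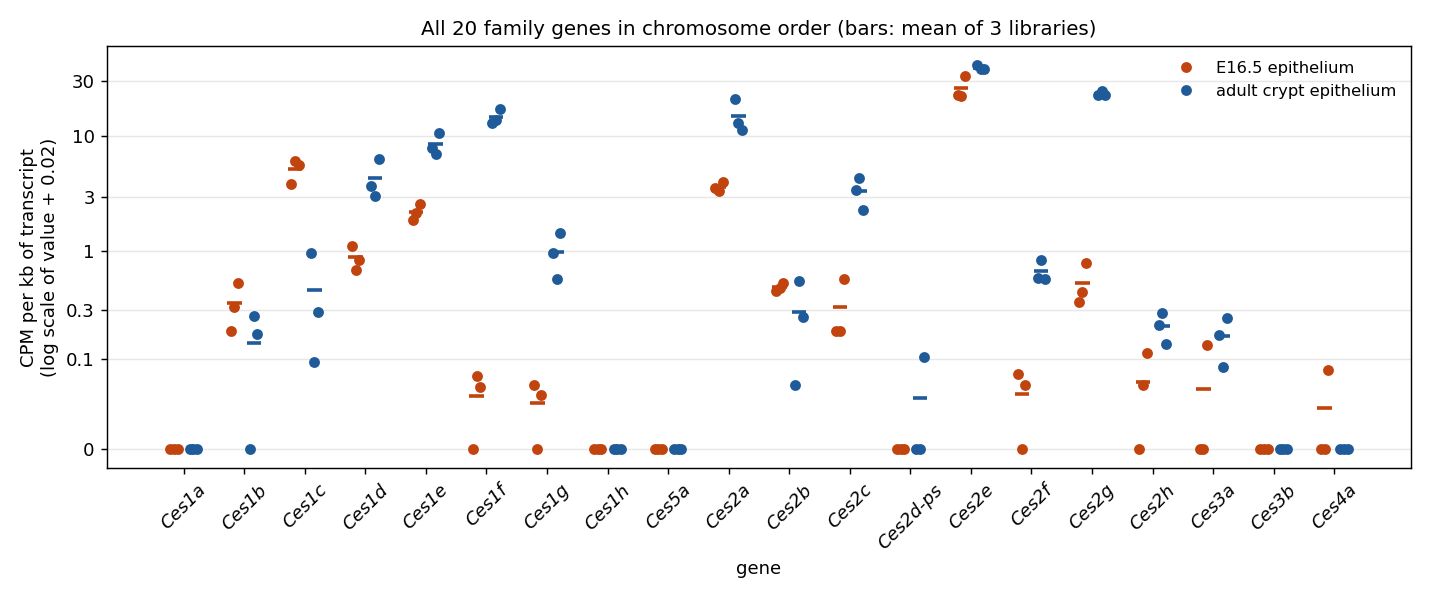
All 20 genes of the family in their order on chromosome 8 (x axis), with CPM per kb of transcript in each library on a log scale of the value + 0.02 (y axis); points are libraries and bars are means. Ces2e is high in both ages, Ces2g and Ces1f are high in adult cells alone, at 23.3 and 14.7 CPM per kb, and Ces1c is higher in fetal cells.

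Since the members lie in 2 blocks of like genes, the bases before their starts were compared. RefSeq promoters (GRCm38.p6) were matched for 5 members, Ces1e, Ces1g, Ces2a, Ces2c and Ces2e. The longest word that 2 of these share in the 250 bases before the start was one of 17 bases, in Ces2a and Ces2e, in capitals below. It begins 205 bases before the start of Ces2a and 183 before that of Ces2e and was found in 2 of 32851 such windows of the genome, these 2. Ces2a is read from the plus strand of chr8:104733753-104734002 and Ces2e from the plus strand of chr8:104926010-104926259.
Ces2a: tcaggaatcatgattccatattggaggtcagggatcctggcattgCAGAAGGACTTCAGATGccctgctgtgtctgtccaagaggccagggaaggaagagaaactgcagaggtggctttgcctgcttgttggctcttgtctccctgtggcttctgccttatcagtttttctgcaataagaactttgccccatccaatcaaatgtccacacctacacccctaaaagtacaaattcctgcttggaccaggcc
Ces2e: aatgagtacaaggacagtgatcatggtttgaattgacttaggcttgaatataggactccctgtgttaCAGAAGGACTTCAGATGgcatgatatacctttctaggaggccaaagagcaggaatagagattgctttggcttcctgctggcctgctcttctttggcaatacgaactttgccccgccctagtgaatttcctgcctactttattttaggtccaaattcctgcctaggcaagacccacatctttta

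Fixed words for factors of the gut were then searched on both strands of the 250 bases. TTTATG, a CDX word, was in 2 of the 5 members, Ces1e and Ces1g, and in 10.8% of all windows. AGGTCA, a nuclear receptor word, was in Ces2a and in 14.0% of all windows, and TATAAA, the TATA word, was in Ces1g and in 12.4% of all windows. CAAAGTCCA for HNF4, GTTAAT for HNF1, TGACNNNGC for NRF2 and AGTTCA, another such word, were in 0 of the 5 and in 0.384%, 6.43%, 10.2% and 11.8% of all windows. Ces2c and Ces2e held none of the 7 words. These shares describe letters in a window and not binding.

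The choice of scale weighs on the lists that follow. Of all calls, 52.8% were higher in fetal cells under TMM (3445 lower, 3859 higher) and 90.1% against the epithelium markers (1038 lower, 9413 higher), with the median shift of all genes given above. Values below are under TMM, which sets the bulk of genes near 0, and each list also has its counts against the markers. Those counts stand beside 9413 higher and 1038 lower of all 13314 tested genes on that scale. Most genes were thus called higher there, and nothing is read from a list's count on it.

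The regulators list holds factors known to act on carboxylesterase or enterocyte genes. Of its 21 genes, all tested, 8 were lower and 7 higher in fetal cells, with a median log2 fold change of −0.03 beside 0.01 over all tested genes. Against the epithelium markers 3 were lower and 15 higher. The xenobiotic receptors Nr1i2 (PXR) and Nr1i3 (CAR), which induce carboxylesterases, were not called, with log2 fold changes of 0.09 ± 0.09 and −0.03 ± 0.15 and means of 65.3 against 61.5 and 42.2 against 43.4 CPM. Against the markers both were called higher, at 0.72 ± 0.10 and 0.59 ± 0.16 (edgeR adjusted p = 1.78e-05 and 0.00411). Hnf4a, a master factor of enterocytes, was lower in fetal than in adult cells, by 1.06 ± 0.09 on the log2 scale (edgeR adjusted p = 2.87e-07). The fatty acid sensor Ppard had a log2 fold change of −2.77 ± 0.12. Prdm1, which holds back adult enterocyte genes before weaning, was higher by 5.58 ± 0.15, and the bile acid receptor Nr1h4 by 1.44 ± 0.11.

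Genes that build triacylglycerol and chylomicrons, the pathway that uses the products of acylglycerol hydrolysis, had a median log2 fold change of 1.14, toward fetal cells. Of 21, all tested, 15 were higher in fetal cells and 1, Dgat1, which was named after its value was seen, was lower. Against the epithelium markers 19 were higher and 0 lower, and Dgat1 was not called, at 0.065 ± 0.11. Dgat2, the other enzyme of the last step of triacylglycerol synthesis, had means of 208 and 26.8 CPM and a log2 difference of 2.95 ± 0.14 (SE, edgeR adjusted p = 2.19e-09). Apob, the core protein of chylomicrons, was at 1.86 ± 0.10, Apoa1 at 2.48 ± 0.12 and the fatty acyl-CoA ligase Acsl3 at 1.64 ± 0.08. Enterocyte markers, 4 of which are in this list, were higher in the same libraries, as given above, and their part was not tested.

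Other enzymes of neutral lipid hydrolysis went both ways. Of 14 tested genes 6 were lower and 5 higher in fetal cells, with a median of −0.05, and against the epithelium markers 2 were lower and 9 higher. The adipose triglyceride lipase Pnpla2 was lower, with a log2 difference of −1.06 ± 0.13 (SE, edgeR adjusted p = 1.44e-05). The lysosomal acid lipase Lipa was higher, by 1.83 ± 0.17, and so were the lipid droplet coats Plin2 and Plin3, by 1.75 ± 0.11 and 1.44 ± 0.09.

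Of the other ester and amide hydrolases, 15 were tested, 5 were higher and 4 lower, with a median of 0.02, and against the epithelium markers 11 were higher and 0 lower. Aadac, an ER deacetylase that shares drug substrates with the carboxylesterases, had means of 188 and 59.0 CPM and a log2 difference of 1.68 ± 0.13 (SE, edgeR adjusted p = 2.27e-07). The acyl-CoA thioesterases Acot1 and Acot2 were higher by 3.91 ± 0.12 and 2.32 ± 0.16, and as near-copies of each other they may share reads. Cel, the bile salt-stimulated lipase of pancreas, had 3653 fetal and 5 adult counts and a log2 of 8.84 ± 0.54, or 10.42 without adult replicate 1. It is itself one of the 11 pancreatic exocrine markers in the table, which summed to 917 to 1947 CPM in fetal and 7.78 to 18.8 CPM in adult libraries, and a share of pancreatic cells in its level was not tested. Cmbl, also higher, and Bche, Lypla2, Ache and Pon3, which were lower under TMM, were named after their values were seen.

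Of the ER genes that fold such enzymes and hold them back, 11 were tested, 5 were higher and 2 lower in fetal cells, with a median of 0.22. Leaving out single libraries gave 3 to 6 higher and 0 to 2 lower, and against the epithelium markers 10 were higher and 0 lower. The chaperone Hspa5 had means of 2035 and 1213 CPM and a log2 difference of 0.75 ± 0.14 (SE, edgeR adjusted p = 6.39e-04), and the disulfide isomerases Pdia6 and Pdia4 were at 0.71 ± 0.12 and 0.40 ± 0.11. The KDEL receptor Kdelr2 was lower, at −0.30 ± 0.09 (edgeR adjusted p = 0.00999), and not called without fetal replicate 1 (adjusted p = 0.0530, range over TMM and the other settings 0.00703 to 0.0530). Against the epithelium markers Kdelr2 was higher, at 0.33 (adjusted p = 0.00333). The other 2 receptors, Kdelr1 and Kdelr3, were not called, with log2 fold changes of 0.08 ± 0.09 and −0.11 ± 0.29, though Kdelr1 was called higher against the markers, at 0.71 ± 0.09. Canx, lower under TMM and higher against the markers, and Hsp90b1 and Pdia3, higher, were named after their values were seen.

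**Figure D4:**
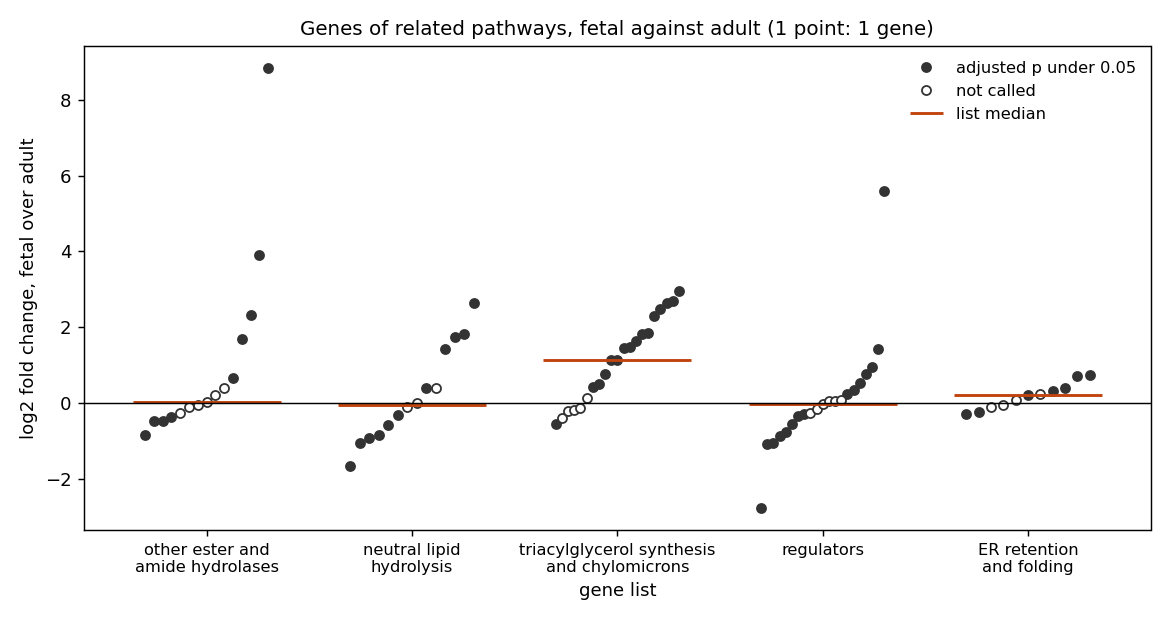
Log2 fold change under TMM, fetal over adult (y axis), of every tested gene of 5 gene lists (x axis); each point is a gene, filled where edgeR's adjusted p was under 0.05, and the line is the list median. The list of triacylglycerol and chylomicron genes has its median at 1.14, and the other 4 lie between −0.05 and 0.22.

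By the distance between centred log2 profiles over the 6 libraries, the genes most like the sum of the 8 members were Chp2, Mir6516, Pgap4, Efnb1 and Nhlrc1, among 10069 candidates. Their root mean square distances were 0.0548, 0.0734, 0.0963, 0.101 and 0.103 on the log2 scale. Chp2, at 25.7, 23.9 and 35.4 CPM in fetal and 68.6, 68.2 and 68.8 CPM in adult libraries, has the high fetal replicate 3 of Ces2e. Ces2e itself was nearest to Pm20d1, at 0.0474, and Ces1f to the immunoproteasome subunit Psmb8, at 0.161, which had 1.75, 2.99 and 3.37 against 142, 139 and 174 CPM. With 2 groups of 3 libraries, any gene with a like ratio between the ages comes close.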

How the data were processed

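RNA was measured in 6 libraries of sorted mouse epithelium, in 2 groups of 3 mapped through the sample titles. The values the authors deposited are raw, whole-number counts per Entrez gene, judging by the table itself. For these samples the build mm10 and edgeR are named, per the submitters' processing notes. No aligner, counter, annotation or strand setting is given in the sources used here, and a stranded low-input total RNA kit is named, per the labels, for adult libraries only. 7 rows have no symbol. The members and lists were chosen with earlier results of these data known.

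All genes went into 1 fit of edgeR 4.0.16 with its quasi-likelihood test (R 4.3.3; TMM, filterByExpr, group means), which kept 13314 genes. Calls needed a Benjamini-Hochberg adjusted p below 0.05. SEs of log2 fold changes were taken as the absolute change over root F. Alternatives were RLE and library-size scaling, with and without Rn45s, DESeq2 1.42.0, other filters, each library left out, a replicate block and, chosen after seeing the data, scaling to epithelium markers. Named genes were the 8 members, all family genes, up to 4 called genes per list with the smallest p, uncalled genes whose role is explained, defining markers that were highest or at 0, and the 5 nearest profiles (log2 of CPM + 0.5, average log2 CPM of at least 3). A count of 0 was limited by 3 counts over the group. Coding sequences were aligned with Biopython 1.88. The tables used here gave no protein sequences, so protein identity was replaced by identity of coding bases. The procedure was tested on simulated data. There it recovered 84.5% of 2-fold and 99.0% of 4-fold changes, and 6.32% of its calls were false, above the nominal 5%.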

Additional observations from a re-analysis of the deposited data

How the results depend on the processing

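Over the alternatives named above other than the marker scaling, 2889 to 3613 genes were called lower and 3450 to 4592 higher in fetal cells, against 3445 and 3859 as reported. Scaled to the epithelium markers, 1038 of 13314 tested genes were lower and 9413 higher. That scale left 0 ester hydrolases, 2 neutral lipid, 0 triacylglycerol, 3 regulator and 0 ER genes lower, and 11 hydrolases, 9 neutral lipid, 15 regulator and 10 ER genes higher. Leaving out single libraries gave 2947 to 3323 lower and 3450 to 3938 higher. With the replicate block, the count of genes called was 3206 lower and 3680 higher. Deviations of same-numbered fetal and adult libraries correlated at −0.07, −0.04 and −0.10, so no shared deviation was seen. Whether same-numbered libraries were prepared together was not tested. The block left 1 ER gene lower and 2 triacylglycerol genes lower, in place of 2 and 1. Library-size scaling, with or without Rn45s, also left 1 ER gene lower, and a filter of 10 counts in 3 libraries left 3 ER genes higher. Without a filter, 2 other family genes and 2 triacylglycerol genes were lower. Left-out libraries gave 0 to 2 lower and 3 to 6 higher ER genes, 2 to 4 lower hydrolases (2 without adult replicate 1) and 1 to 2 lower triacylglycerol genes (2 without fetal replicate 3 or adult replicate 2). Leaving out any 1 of the 6 libraries moved the lower or the higher ER count by over 1.5 times, and 0 were lower without fetal replicate 1. The summed members ranged from −1.40 to −1.12 over left-out libraries and stood at −0.59 when scaled to the epithelium markers, where Ces2e reversed to 0.044 and Kdelr2 to 0.33. That scale moves all genes together, to a median of 0.63. The cause of the other moves was not tested. Of the refits of single list genes, 306 kept direction and call, and Kdelr2 lost its call without fetal replicate 1. Depth limits Ces1d, Ces1f, Ces1g, Ces2b and Ces2c, which rest on 47, 2, 2, 44 and 18 fetal counts.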
